A study of Caenorhabditis elegans with 609 samples.

Results

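QX1791, QX1792, QX1793 and QX1794 are 4 wild strains of the nematode Caenorhabditis elegans, grouped here because their names share the prefix QX179, and they were set against every strain whose name begins with letters other than QX. They gave 11 RNA samples, 1.81% of all samples and 1.92% of all strains, and the strains with another prefix made up 97.4% of the samples and 97.1% of the strains. QX1212 and QX1233, with 5 samples, carry the QX prefix but lie outside both groups. In the study, wild strains were grown as synchronized populations, harvested as young adults at the first laid embryo, and profiled by RNA sequencing to map variants that alter expression. Every sample of both groups was labelled as whole young adult hermaphrodites grown at 20 °C on agar plates and fed Escherichia coli OP50, with no treatment, so the labels of the 2 groups differed in strain and in the pool and year that the titles carry. Apart from N2, the laboratory-adapted reference strain, which was among the other strains, each strain is a natural isolate propagated as a near-uniform line. Samples of a strain are called cultures here, because the study's methods describe independently grown replicates. The labels state no property that the 4 strains share other than their names.

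Wild C. elegans strains are mostly self-fertilising hermaphrodites, so each is close to homozygous and its alleles are inherited in long blocks. Much of the natural variation in expression comes from variants near the affected gene, and large, fast-evolving families such as the F-box genes, the C-type lectin-like genes and the chemoreceptors lie in variable chromosome arms. A young adult hermaphrodite has finished making sperm, is making oocytes and yolk, and has a fixed set of body cells, so its age and its number of sperm set a large share of its RNA.

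Of the 11 cultures, 10 passed the selection for cultures that lie close to others of their strain, and culture 2 of QX1794 did not. This left 2 cultures of QX1791, 3 of QX1792, 3 of QX1793 and 2 of QX1794, against the kept cultures of all strains with another prefix, called the other strains below. Estimated counts per QX179 culture ranged from 17265440 to 33094155 (median 27421727), against 15461168 to 280262722 over all cultures (median 28772489). Both cultures of QX1791 came from 1 library pool, which also held culture 3 of QX1792, while cultures of the other 3 strains were spread over several pools with both years in their titles, where the labels do not say what the year marks. The values are log2(normalized TPM + 0.5) unless stated, where TPM is a transcript's abundance scaled to a fixed total per library, so that -1.0 stands for no read. A strain's level is the mean of its cultures. In comparisons of the QX179 strains with the other strains, p-values measure the spread between strains. In tests among the QX179 strains, or of 1 of them against the rest, p-values measure the spread between kept cultures of a strain.

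The 4 strains did not form a group of similar transcriptomes. Over 16618 features (16511 protein-coding genes and pseudogenes, the rest transposable elements), the mean Euclidean distance between QX179 strains was 125.9, their mean distance to the other strains was 112.03, and the mean distance among the other strains was 100.2. The distance within the 4 strains exceeded their distance to the other strains by 13.84, a difference that a permutation test of strain labels did not separate from 0 (two-sided p = 0.17). Their mean distance to the other strains did not pass either (permutation test, two-sided p = 0.067), although it passed under rank correlation (0.06155, p = 0.046), with pool effects subtracted (115.9, p = 0.033) and without QX1793 (115.4, p = 0.048).

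The strains fell into unlike pairs. QX1793 and QX1794 lay 75.2 apart and QX1791 and QX1792 lay 100.9 apart. The 4 distances across these pairs were 132.8, 134.3, 153.4 and 158.6. Cultures of 1 strain lay 41.5 to 77.8 apart, so the distances between strains of a pair (80.1 to 129.9 over pairs of cultures) were larger than the spread between cultures. QX1793 was the 8th nearest strain to QX1794, and QX1794 the 13th nearest to QX1793, whereas QX1792 ranked 75th for QX1791. Deviations from the mean of the other strains were taken over the 16618 features, which are not independent of each other. Their Pearson r was 0.60 between QX1793 and QX1794, 0.38 between QX1791 and QX1792, and -0.16 to -0.40 across the pairs. For 10210 of the 16618 features the means of QX1791 and QX1792 did not overlap with those of QX1793 and QX1794. The pairs were chosen from distances over these same features, so this count describes the split and does not test it.

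Sperm and muscle genes were among those that separated the pairs. The mean level of 65 sperm genes, among them the major sperm proteins that build the crawling sperm's cytoskeleton, was 6.93 in QX1791, 6.51 in QX1792, 3.81 in QX1793 and 2.63 in QX1794, against a median of 5.55 and a range of 1.62 to 7.3 in the other strains. Of the other strains, 10 lay above QX1791 and 5 at or below QX1794, so the 4 strains spanned most of the natural range. gsp-3, a protein phosphatase of sperm, was at 6.43 and 6.69 in the cultures of QX1791, at 5.91, 5.99 and 6.34 in QX1792, at 3.45, 3.01 and 2.36 in QX1793, and at 2.29 and 1.24 in QX1794.

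Each culture of QX1791 and QX1792 was thus above every culture of QX1793 and QX1794 for gsp-3. Muscle genes (12 of 12 tested) averaged 7.62, 8.21, 6.89 and 6.42 in QX1791 to QX1794, and 1 other strain lay above QX1792. unc-54, the main myosin heavy chain of the body wall, was at 8.59, 8.79, 7.54 and 6.49. Among the 4 strains 63 of 65 sperm genes and 12 of 12 muscle genes differed by edgeR's quasi-likelihood F-test with Benjamini-Hochberg adjustment, against 9456 of 16618 features (56.9%). Oocyte genes averaged 8.35, 7.92, 8.56 and 8.47, and yolk genes, which make the food supply of the oocyte, averaged 10.63, 10.07, 10.30 and 10.31, where 1 of 6 differed.

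As a group, the QX179 strains did not differ from the other strains in any of 8 marker scores, for sperm, yolk, oocyte, embryo, muscle, neuron, intestine and the male tract (permutation tests, two-sided, Benjamini-Hochberg adjusted p of 0.87 to 0.93 over the 8). The defining markers of an adult hermaphrodite were all present, with vit-2 at 11.03 to 11.69 and cpg-2, of the eggshell, at 10.06 to 10.86. The male list had 3 of 5 genes above the limit on low counts, with scores of -0.11 to 0.16 against -0.73 to 0.67 in the other strains. Whole animals were sequenced, so a lower level cannot be told apart from fewer cells of that kind, and the sperm and muscle levels move with each comparison among the 4 strains below.

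**Figure D1:**
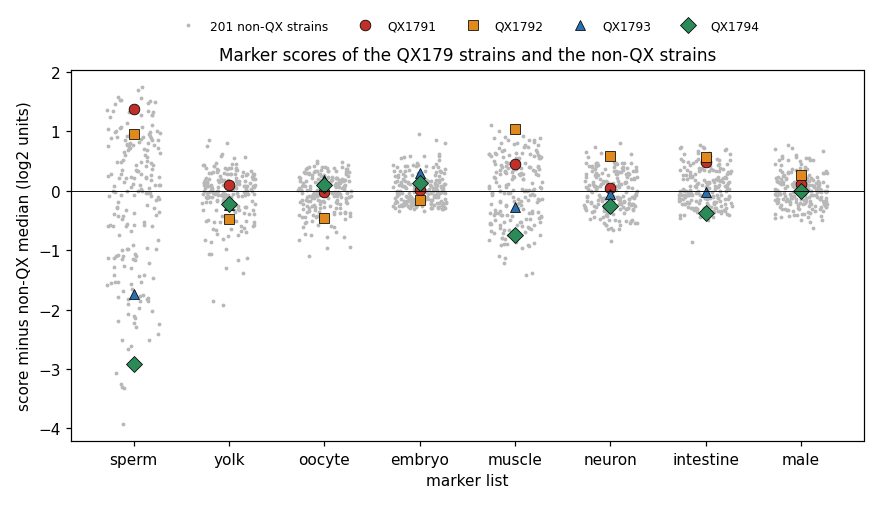
Marker score of each strain minus the median of the other strains (log2 units, y axis) for 8 marker lists (x axis), with 1 grey point per other strain and 1 coloured symbol per QX179 strain. For sperm, QX1791 and QX1792 lie above 0 and QX1793 and QX1794 below it, with 5 other strains at or below QX1794, and for muscle 1 other strain lies above QX1792.

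The comparison of the 4 strain means with the means of the other strains asked which features the QX179 strains held in common. With limma's moderated test and Benjamini-Hochberg adjustment, 52 of 16618 features passed an adjusted p of 0.05 (0.313%), 34 higher (0.205%) and 18 lower (0.108%), and 31 of them also differed by at least 1 on the log2 scale (0.187%), 18 of them higher (0.108%) and 13 lower (0.0782%). The 52 comprised 41 protein-coding genes, 8 pseudogenes and 3 transposable elements. The median difference over all features was 0.006. The split by direction depended on the tool, with 50 higher and 9 lower for edgeR and 21 and 67 for DESeq2, and 23 and 25 with a pseudocount of 0.1. Of the 52, 27 were also called by edgeR and 19 by DESeq2. Neither of these tools gave an adjusted p under 0.05 for some of the genes named below. These were B0250.3, B0250.7, C17F4.8, C34D4.10, C35B1.8, F14H3.15, K02F6.7, T01G5.7, W08F4.7, Y53C12A.11 and Y82E9BR.2. ZC239.6, ZK218.7, fbxa-28, fbxa-100, fbxa-101, irld-27 and zak-1 were the rest. Scores of sperm, yolk, oocyte and embryo genes as covariates kept all 52 and raised the counts to 87 and 74.

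A shared difference and a difference carried by 1 or 2 strains were both found among the 52. All 4 strain means lay on one side of the median of the other strains for 30 (19 higher and 11 lower), against 1374 of all features (8.27%). The calls were made on the mean of these same 4 strains, so a larger share is built in and tests nothing. For 10 features all 4 means lay beyond the 10th or the 90th percentile of the other strains: F14H3.15, F36G9.4, F58F9.1, F58F9.6, W08F4.7, fbxa-100, his-3, rrf-2, srv-32 and unc-77. In no feature of the 16618 were the QX179 strains wholly separate from the other strains. Leaving out each strain in turn kept 9 calls throughout, those of F58F9.1, srv-32, pyk-2, F36G9.4, F58F9.6, fbxa-100, C17F4.8, F14H3.15 and B0250.3. Of these 9, edgeR called 5 and DESeq2 called 3 (F58F9.1, srv-32 and pyk-2). Without QX1791 only 19 features were higher and 9 lower.

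Some called genes lay near each other in the genome. Joining called genes at most 100 kb apart placed 24 of the 49 in 6 stretches. Overlapping genes are counted apart in this, and no other set of tested genes was joined for comparison. Clustering of the calls was therefore not tested. Chromosome V held 18 of the calls among 3355 tested genes (0.537%), against 2 of 2304 on chromosome X (0.0868%). Coordinates are those of the WBcel235 annotation. The deposited values came from reads aligned to strain-specific transcriptomes, and the regions of extreme divergence that the study masked strain by strain were not masked here. A low value from reads that could not be aligned therefore cannot be told apart from less RNA.

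The stretch with the most calls lay on chromosome V from 15959808 to 16062093, where 8 of 33 tested genes were called and the median difference of the 33 was -0.06. All 8 had the 4 strains on one side. F36G9.4, a pseudogene, F14H3.15 and fbxa-100 were higher, and T10C6.7, T10C6.8, T10C6.10, his-3 and F14H3.3 were lower. None of the other strains was at least as extreme as the least extreme QX179 strain at all 8 genes, 76.1% of them were so at none, and CX11315, MY16, MY23, XZ1513 and XZ1515 were so at 7.

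T10C6.8, a pseudogene at V 16027501 to 16029338 on the minus strand, had 0 counts in all 10 QX179 cultures. Its median over the other strains was 8.79 CPM (counts scaled to the library total), at least 50.6-fold above the floor of 3 counts per library (0.174 CPM), although 26 of those strains were also at 0 in all their cultures. The call (difference -3.57, SE 0.802, limma with Benjamini-Hochberg adjusted p = 0.0073) was lost without QX1791 (adjusted p = 0.070) and without QX1793 (0.055). T10C6.7 overlaps T10C6.8 by 1838 bases on the same strand, so reads of the pair may be split between them. It was at 0.35, -0.31, -0.64 and -0.27 in QX1791 to QX1794, against a median of 4.10 and a 10th percentile of -0.16 in the other strains (difference -3.57, adjusted p = 0.021 in limma, 0.081 to 0.15 with 1 strain left out).

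T10C6.10, the next called gene along, is a protein-coding gene at V 16036413 to 16038334 whose cultures read 0.96 and 1.62 in QX1791, 0.44, 1.00 and 0.83 in QX1792, 0.40, 0.37 and 0.48 in QX1793 and 0.35 and 1.01 in QX1794. Among the other strains the median was 4.21, and 24 of them lay at or below the highest QX179 strain (difference -3.01, SE 0.660, adjusted p = 0.0058 in limma, 0.066 without QX1793). These 3 genes were low in all 4 strains, and in 24 to 28 of the other strains too.

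his-3, which encodes a histone H2A, was at -0.14, 0.99, 0.75 and 1.12, below the 10th percentile of the other strains (1.65) in each. Its counts were few, with 0 to 15.5 per culture, and its call (difference -1.58, adjusted p = 0.00038 in limma) was lost without QX1791 (0.076). Of the other histone genes beside it, his-4 differed by 0.12, his-2 by 0.78 and his-1 by -0.88, and none passed. Histone genes have near-identical copies and their messages mostly lack the poly(A) tail that the libraries select, so these values are uncertain. F14H3.3 was at 1.91, 1.73, 2.46 and 3.04 against a median of 3.51 (difference -1.10, adjusted p = 0.041 in limma, 0.54 without QX1791, 0.47 without QX1792 and 0.10 without QX1793).

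The genes that were higher lay at the ends of the stretch. F36G9.4, at V 15959808 to 15961915, read 1.21 and 1.09 in QX1791, 1.85, 1.85 and 1.64 in QX1792, 1.41, 1.32 and 0.94 in QX1793, and 1.49 and 0.80 in QX1794. Its median over the other strains was -0.40 and their highest mean 1.63, so QX1792 was above all of them (difference 1.51, SE 0.284, adjusted p = 0.00038 in limma, at most 0.020 with 1 strain left out). fbxa-100 encodes an F-box protein, of the kind that brings substrates to a ubiquitin ligase, and was at 1.08, 0.85, 0.96 and 1.85 against a median of -0.94. Its difference of 1.80 (SE 0.339, adjusted p = 0.00038 in limma) held with each strain left out (at most 0.025) but did not pass in edgeR (adjusted p = 0.47).

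F14H3.15, next to fbxa-100, was at 2.06, 1.30, 1.43 and 1.09 against a median of -0.83 (difference 2.03, SE 0.386, adjusted p = 0.00044 in limma, at most 0.035 with 1 strain left out, 0.23 in edgeR). For F36G9.4, F14H3.15 and fbxa-100, 12 to 15 of the other strains reached the lowest QX179 strain. The stretch was therefore a combination of levels found in part in other strains, and all 8 together in none of them. Its genes were chosen because the QX179 strains differed there, which by itself makes full matches rare. No stretch chosen for another set of strains was set beside it. The shares of strains matching at none, here and in the stretch below, carry the same limit.

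On chromosome IV from 6157306 to 6282243, 4 of 23 tested genes were called and all 4 strains were on one side in each. unc-77, a subunit of the neuronal sodium leak channel, and F58F9.6 were higher, and F58F9.1 and srv-32, a member of a chemoreceptor family, were lower. ECA705 and JU778 were at least as extreme at all 4, and 91% of the other strains at none.

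F58F9.6, at IV 6235935 to 6237608, read 0.27 and 0.46 in QX1791, -0.09, 0.09 and 0.55 in QX1792, -0.17, 0.78 and 1.81 in QX1793 and 1.04 and 1.86 in QX1794. Its median in the other strains was -1.0 and its 90th percentile -0.87, and 9 of them reached the lowest QX179 strain (difference 1.57, SE 0.219, adjusted p = 6.9e-08 in limma, 0.012 in edgeR and 1.0 in DESeq2). F58F9.1, in the same stretch, had 0 counts in 7 of the 10 QX179 cultures and 1 count in the remaining 3, against a median level of 0.48 and a 10th percentile of -0.10 in the other strains. The difference was -1.38 (SE 0.252, adjusted p = 0.00022 in limma and 2.1e-06 in edgeR), and it overlaps, on the same strand, T13A10.2, which differed by -0.78 without passing (adjusted p = 0.071).

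srv-32, at IV 6279960 to 6282243, had 0 to 2 counts in each QX179 culture. Its level was -0.95, -0.94, -0.94 and -0.87 against a median of -0.32, 7 of the other strains were as low, and the difference of -0.63 (SE 0.122, adjusted p = 0.00064 in limma and 2.0e-06 in edgeR) held with each strain left out. unc-77 was at 0.15, 0.27, 0.34 and 0.09 against a median of -0.15 and a 90th percentile of 0.04 (difference 0.35, adjusted p = 0.0063 in limma), a call lost without QX1793 (0.14) and without QX1792 (0.073). Each of these genes was at a low level in the other strains, and srv-32 near the limit of detection. sams-5, next to srv-32, was at 1.05, 1.12, -1.41 and -3.24 relative to the median of the other strains in QX1791 to QX1794, and its group difference of -0.42 did not pass (adjusted p = 1.0 in limma).

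**Figure D2:**
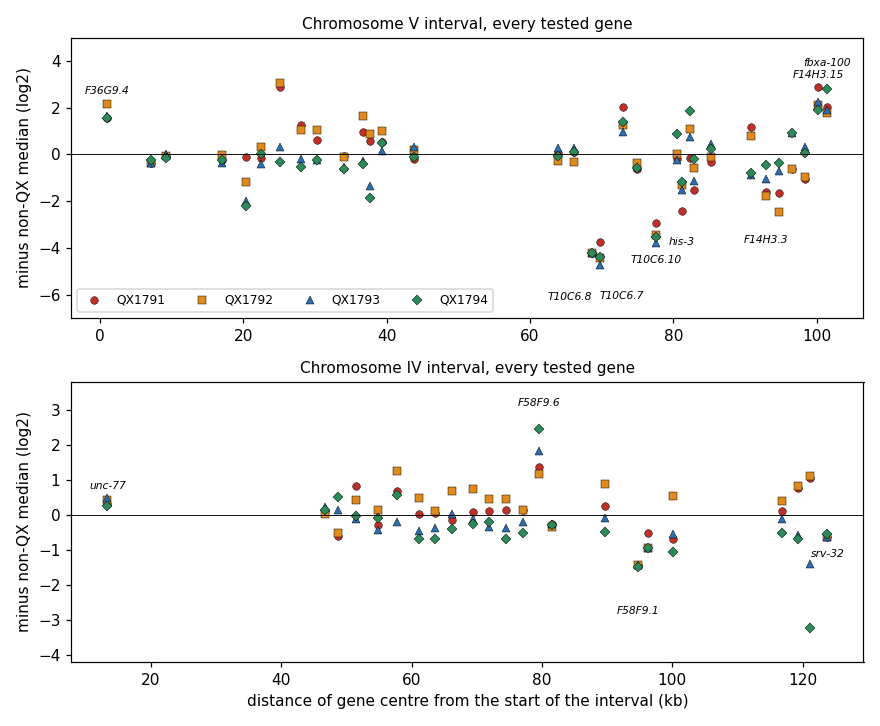
Strain mean minus the median of the other strains (log2, y axes) for every tested gene of 1 stretch on chromosome V and 1 on chromosome IV, in which every called gene has all 4 strains on one side, against the distance of the gene's centre from the start of the stretch in kb (x axes), with 1 symbol per QX179 strain and the called genes named. The 4 strains lie together at -4.2 for T10C6.8, and they are spread from 1.12 to -3.24 at sams-5, an uncalled gene near the right end on chromosome IV.

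The stretch on chromosome II from 3209631 to 3334205 held 5 called genes of 31 tested, all higher, and 13 of the other strains were at least as extreme at the 4 with all QX179 strains on one side. C17F4.8 was at 1.01, 0.59, 1.2 and 1.69 in QX1791 to QX1794, where the median of the other strains was -1.0 and their highest mean 1.56 (difference 1.87, SE 0.318, adjusted p = 3.9e-05 in limma, at most 0.0042 with 1 strain left out, 0.26 in edgeR). ZC239.22 was highest in QX1791 (2.53), above all other strains (highest 1.67), and at -0.08, 0.24 and -0.46 in the others, against a median of -0.84 (difference 1.31, adjusted p = 4.8e-09 in limma, 0.073 without QX1791). ZC239.6, which overlaps ZC239.5 by 740 bases, was at 1.38, 2.54, 1.30 and 1.38 against a median of -0.93 (difference 2.10, adjusted p = 0.011 in limma, 0.23 without QX1792 and 0.064 without QX1791).

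On chromosome III from 1297904 to 1443192, 3 of 26 tested genes were called, and the strains did not act alike. Y82E9BR.2, a pseudogene, was at 4.52 in QX1791 and at -0.90, -0.93 and -0.56 in the other 3. Estimated counts were 1200.5 and 859.1 in the cultures of QX1791 and 0 to 12.0 in those of the other 3, against a 10th percentile of 3.25 in the other strains (difference -3.09, adjusted p = 0.0067 in limma, 0.00033 without QX1791, 0.21 without QX1792 or QX1793 and 0.13 without QX1794). The F-box genes fbxa-28 (1.39, -0.50, -0.34 and -0.86, median -0.96) and fbxa-27 (-0.12, -0.42, 0.03 and 1.17, median -0.49) were highest in QX1791 and QX1794 and their calls were lost without that strain (adjusted p = 1.0 and 0.80 in limma), that of fbxa-27 also without QX1791 (0.061) or QX1793 (0.093).

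Between these genes lay pals genes, of a family expanded in nematodes whose members respond to infection inside cells, and they were singled out after their values were seen. pals-17 was at -1.0 in both cultures of QX1791 and of QX1794, at 2.36, 2.49 and 2.30 in QX1792 and at 1.46, 1.73 and 1.81 in QX1793, against a median of -0.88 in the other strains. pals-16, pals-19 and pals-20 had the same order, above -1.0 in QX1792 and QX1793 and at -1.0 in QX1791 and QX1794 (edgeR F-test among the 4, adjusted p of 1.1e-05 to 0.0020). The pairing of strains at these genes was thus QX1792 with QX1793, not the pairing of the whole transcriptome.

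At the right end of chromosome V, from 20468349 to 20476061, the pseudogene B0250.3 had the largest difference of the 52. Its cultures read 9.27 and 9.88 in QX1791, 2.14, 1.01 and 1.62 in QX1792, 9.18, 8.80 and 8.98 in QX1793 and 8.36 and 8.34 in QX1794. The other strains fell into 190 from 0.45 to 5.0 and 11 from 8.24 to 10.13, with none between.

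QX1791, QX1793 and QX1794 thus had the level of those 11 strains and QX1792 that of the 190 (difference 5.30, SE 0.926, adjusted p = 7.7e-05 in limma, 0.028 without QX1791, 0.12 in edgeR). The mean TPM was 760.9, 506.6 and 325.1 in the 3 high strains and 2.51 in QX1792. rpl-2, a ribosomal protein gene of the same cosmid, was at 11.23, 11.94, 11.60 and 10.87. B0250.7, the other called gene there, was lowest in QX1791, at 1.35, 4.95, 3.44 and 2.40 against a median of 5.0 (difference -1.58, adjusted p = 0.026 in limma, 1.0 without QX1791, 0.057 without QX1793 and 0.27 without QX1794). Whether B0250.3 takes reads of a similar gene was not tested.

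Beyond these stretches, pyk-2 kept its call with each strain left out and in all 3 tools. It encodes a pyruvate kinase, the enzyme of the last step of glycolysis, and lies at IV 10909913 to 10913078. Its cultures read 6.79 and 6.7 in QX1791, 6.88, 7.05 and 6.51 in QX1792, 4.68, 4.92 and 4.98 in QX1793 and 6.65 and 6.14 in QX1794, against a median of 5.02 and a range of 4.49 to 6.77 in the other strains.

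QX1793 was below the median for pyk-2, and the other 3 strains lay at the top of the natural range or above it, with QX1792 above every other strain and 1 of them at or above 6.39. The difference was 1.15 (SE 0.160, 2.22-fold), with an adjusted p of 6.9e-08 in limma, 6.4e-14 in edgeR and 1.1e-15 in DESeq2, and of at most 0.00094 in limma with 1 strain left out. Without QX1793 it was 5.8e-13.

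irg-4, an infection response gene regulated by the p38 kinase PMK-1, was below every other strain in 3 of the 4 strains. The cultures read -0.75 and -0.60 in QX1791, -0.54, -0.35 and -1.0 in QX1792, 0.55, 0.17 and 0.26 in QX1793 and 2.48 and 0.61 in QX1794. The means of QX1791 (-0.68), QX1792 (-0.63) and QX1793 (0.33) lay below the lowest of the other strains (0.35, median 2.57). QX1794, at 1.55, lay inside their range, and 26 of the other strains were at or below it.

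irg-4 was the only feature with 3 QX179 strains outside the range of the other strains on one side, and no feature had 4. The difference was -2.55 (SE 0.527, adjusted p = 0.0024 in limma, 0.054 in edgeR, 8.2e-05 in DESeq2), and the call was lost without QX1791 (0.087) and without QX1792 (0.059). QX1794's cultures differed from each other by more than the QX1791 and QX1792 cultures did. Among 14 tested genes of the PMK-1 list, irg-4 alone was called, and their median difference was -0.48 against 0.006 over all features.

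rrf-2, of the RNA-dependent RNA polymerase family, was at 2.16, 2.01, 2.42 and 2.13, each above the 90th percentile of the other strains (1.87, median 1.42). The difference of 0.73 (SE 0.177, adjusted p = 0.023 in limma and 0.036 in edgeR) was lost without QX1793 (0.25), QX1791 (0.13) and QX1794 (0.075). W08F4.7 was at 0.40, 0.55, 0.55 and 0.55 against a 90th percentile of 0.27 and a median of -0.10, and 11 of the other strains reached the lowest of the 4 (difference 0.61, adjusted p = 0.040 in limma, 0.13 in edgeR, 0.12 to 0.19 with 1 strain left out).

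C34D4.10 was at 5.48, 5.32, 5.35 and 4.97 against a median of 3.63, with 33 other strains at or above 4.97 (difference 1.44, adjusted p = 0.046 in limma, 0.084 to 0.38 with 1 strain left out). Y40C5A.4 was at -0.04, 0.47, -0.43 and -0.43 against a median of 1.48 (difference -1.36, adjusted p = 0.047 in limma, 0.23, 0.29 and 0.26 without QX1791, QX1793 and QX1794). C35B1.8 was at 2.97, 1.22, 2.43 and 0.43 against a median of 0.20 (difference 1.4, adjusted p = 0.041 in limma, 1.0 without QX1791 and 0.43 without QX1793). F43D2.2, a pseudogene, was at 3.89 in QX1791, near the median of 4.14, and at 0.06, 0.58 and 0.40 in the other 3 (difference -2.66, adjusted p = 0.0048 in limma, 0.15 without QX1792, 0.087 without QX1793 or QX1794).

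Several calls were carried by 1 strain, and that of nhr-98 by 2. ugt-67, of the UDP-glucuronosyltransferases that tag small molecules for removal, was at 3.25 in QX1791 and at 0.06, -0.29 and -0.26 in the other 3, against a range of -1.0 to 1.90 (difference 1.16, adjusted p = 0.0065 in limma, 1.0 without QX1791). abu-4, of a family with prion-like repeats, was at 2.76 in QX1792 and -0.51, -0.58 and -0.79 elsewhere, against a highest value of 1.06 (difference 0.94, adjusted p = 0.0065 in limma, 1.0 without QX1792). nhr-98, a nuclear hormone receptor gene, had 0 counts in all 5 cultures of QX1791 and QX1792 and 30 to 43 in those of QX1793 and QX1794, while each culture of the other strains had at least 1 read (difference -0.85, adjusted p = 0.040 in limma, 1.0 without QX1791 or QX1792).

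The gene families were chosen with earlier results of these data known, and few of their members were called. Of the tested F-box genes 3 were called higher (1.23%) and 1 lower (0.41%), beside 0.205% and 0.108% of all features. Of the C-type lectin-like genes 1 was called higher (0.719%), and of the glucuronosyltransferase and glutathione transferase genes 1 higher (0.971%). Of the nuclear hormone receptor genes 1 was called lower (0.524%), of 80 chemoreceptor genes 1 lower, and of 63 histone genes 1 lower. The median differences of these lists were between -0.01 and 0.05. None of the collagen genes, 81 ribosomal protein genes, 68 cytochrome P450 genes, 25 pals genes, 27 Argonaute genes, 76 MATH domain genes or 12 mitochondrially encoded genes was called.

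Collagen genes, which build the cuticle, were shifted within the group without a call, with a median difference of 0.43. QX1792 carried most of it, with a median of 2.16 above the other strains and 64.2% of the genes beyond the 90th percentile, beside 25.9% of all features. QX1794 had a median of -0.33, and 19% of its collagen genes lay below the 10th percentile, close to the 17.8% of all features. Against the other 3 QX179 strains, 94 collagen genes were higher in QX1792 and 79 lower in QX1794 by edgeR (adjusted p under 0.05), beside 32.6% and 19.5% of all features. Muscle genes moved with them, 12 of 12 beyond the 90th percentile in QX1792 where 25.9% of all features were, and their part in the collagen levels was not tested.

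Heat shock genes were low in QX1793. hsp-16.41, a small heat shock protein gene, was at 4.28 and 4.81 in QX1791, 4.44, 4.31 and 4.49 in QX1792, 0.91, 1.48 and 1.02 in QX1793, and 5.65 and 2.68 in QX1794, against a median of 4.71 and a range of -0.77 to 6.73 in the other strains. All 8 tested genes of the list were lower in QX1793 than in the other 3 strains (edgeR, adjusted p of 0.00073 to 0.019), beside 10.5% of all features, and the median of their differences from the other strains was -2.32.

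QX1793 lay within the range of the other strains at each of the 8, and QX1794's cultures were far apart, at 5.65 and 2.68 for hsp-16.41. Pairs of these genes are near-identical copies (hsp-16.48 had 2 entries with equal values), so they are fewer than 8 independent measures.

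Ribosomal protein genes were low in QX1794, with 62 of 81 below the 10th percentile, beside 17.8% of all features, and a median of -0.27. By edgeR, 11 of 81 (13.6%) were lower than in the other 3 strains, a smaller share than the 19.5% of all features. Mitochondrially encoded genes were low in QX1791, with 12 of 12 below the 10th percentile, beside 6.9% of all features, and a median of -1.0. By edgeR, 4 of 12 were lower in QX1791 than in the other 3 strains (adjusted p under 0.05), beside 3.71% of all features. COX3 read 9.65 and 9.12 in QX1791, and 10.63, 11.13 and 9.54 in QX1792. MTCE.12 read 9.92 and 9.04 in QX1791, and 10.91, 11.37 and 9.58 in QX1792. Culture 3 of QX1792, the last value each time, came from the library pool of QX1791. Histone genes were low in QX1791 (23 of 63 below the 10th percentile, beside 6.9% of all features) and high in QX1794 (20 of 63 above the 90th, beside 10.8%). Poly(A) selection, RNA quality and library pool bear on these last lists, and their part was not tested.

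Long terminal repeat (LTR) retrotransposons, which copy themselves through RNA, were high in QX1791. Of 25 tested LTR elements, QX1791 lay above the whole range of the other strains in 11, beside 1.06% of all features, and above their median in 20. Rows that share an element's name are counted apart here and below. CER8_I and CER8_LTR, CER10_I and CER10_LTR, and CER16_I and CER16_LTR are all among the 11. These are therefore fewer than 11 independent measures. QX1792 lay above the range in 1, and QX1793 and QX1794 in none. Strains were also ranked at each element, with QX1791 among them, and it held first place in 11 of the 25 LTR elements. This left fewer first places to the other strains, so their counts are not a separate measure. Among the other strains, the most LTR elements for which 1 strain ranked first was 3. Over the elements of all classes, 1 other strain ranked first in 10, against 14 for QX1791. Of other classes, QX1791 was above the range in 3 of 63 DNA transposons and in none of 10 LINE, 7 RC (rolling-circle) and 2 SINE elements. It was above the median of the other strains in 46 of the DNA, 7 of the LINE, 6 of the RC and both SINE elements, with median differences of 0.24, 0.10, 0.51 and 0.37, against 0.77 for the LTR elements. The difference between classes was not tested.

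CER3_1_LTR read 5.81 and 5.99 in QX1791, 2.22, 1.79 and 3.21 in QX1792, 3.02, 2.74 and 3.34 in QX1793 and 1.94 and 2.91 in QX1794. The 78 cultures of other strains in the same library pool had a median of 2.94 and a highest value of 4.31. CER10_LTR read 2.27 in both QX1791 cultures and -0.36 to 0.57 in the other 8, with a highest value of 1.19 in the pool.

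Both cultures of QX1791 were above every culture of the other strains in their pool in 9 of the 11 elements. In CER10_I (-0.28, pool highest -0.22) and CER9_I (0.15, pool highest 0.20), culture 1 was not. CER5_I (1.2 and 1.25, pool highest 0.52), CER8_I (0.65 and 0.59, pool highest 0.09), CER7_LTR (3.48 and 3.09, pool highest 2.11) and CER8_LTR (3.69 and 3.53, pool highest 3.17) had the same order. Against the other 3 QX179 strains, 13 of 25 LTR elements were higher in QX1791 by edgeR (adjusted p under 0.05), beside 14.2% of all features. Element rows are consensus sequences, so copies in the genome cannot be told apart and a copy number difference was not tested.

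In the group comparison 3 elements were called, with differences under 1, and they were singled out after their values were seen. CER16_I was at 0.57 in QX1791 and -0.92, -1.0 and -1.0 in the other 3, and CER6_I was at 0.29 against -0.87, -0.98 and -0.95, so both calls (0.38 and 0.29, adjusted p = 2.0e-07 and 0.00092 in limma) came from QX1791 and were lost without it (adjusted p = 1.0). TIR43YW1, a DNA transposon, was at 0.10, 0.04, 0.79 and -0.68 against a median of -0.79 (difference 0.78, adjusted p = 0.00067 in limma, 0.27 without QX1793). CER17_LTR was at -1.0 in all 10 QX179 cultures, where 56.2% of the other strains were above it, and CER4_I was highest in QX1792 (0.28, 0.22 and 0.50).

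**Figure D3:**
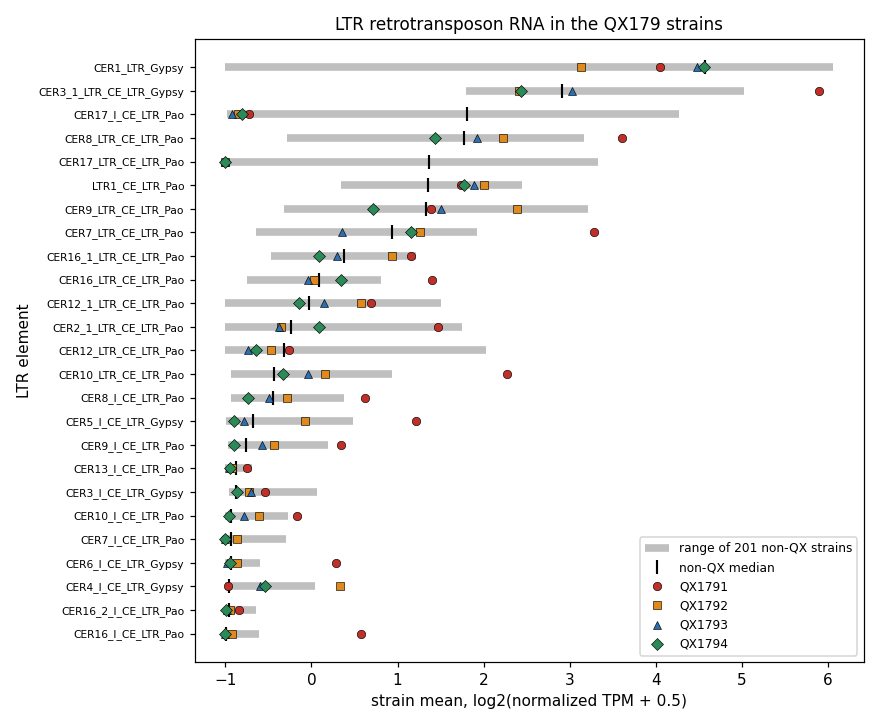
Strain means (log2 of normalized TPM + 0.5, x axis) of the 25 tested LTR elements (y axis) in the 4 QX179 strains, with the range of the other strains as a bar and their median as a black tick. QX1791 lies above the bar in 11 of 25 elements, among them CER16_I (0.57) and CER6_I (0.29), and QX1792 in 1.

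Each QX179 strain also had features outside the range of all other strains and of the other 3. QX1791 had 1.06% of all features above and 0.277% below, QX1792 1.26% and 0.187%, QX1793 0.0903% and 0.168%, and QX1794 0.277% and 0.614%. These were chosen for lying outside the range and are given as a description, with no test. Sharing was rare. C26H9A.3 was the only feature with more than 1 QX179 strain above the range, at 4.39 and 3.61 in QX1791 and QX1792 against a highest value of 3.59. Below the range, irg-4 was shared by 3 strains and 5 features by 2, namely nhr-98, C47A4.5, clec-65, F40B1.2 and ZC404.16.

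In QX1791, the gene WBGene00194957 (3.41, other strains up to 1.06), Y37A1B.4 (4.59, up to 2.68) and the pseudogene R11H6.7 (3.78, up to 1.89) were the highest beyond the range. Y53C12A.11 had 0 counts in both cultures of QX1791, where the other 3 strains were at 3.25 to 3.95 and no other strain was below 2.31. It overlaps Y53C12A.6 on the same strand. The F-box gene fbxa-101 was at 1.93 against 4.88, 5.10 and 5.15 in the other 3 and a lowest value of 4.27, and Y39H10B.2 was at 0.62 against a lowest of 2.63. For all 6 genes the 78 cultures of other strains in the pool of QX1791 did not reach its levels.

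In QX1792, ZK218.5 read 5.45, 6.64 and 6.36, against 0.96, 1.74 and -0.71 in QX1791, QX1793 and QX1794 and at most 3.97 in the other strains. Its neighbour on chromosome V, ZK218.7, was at 0.43, 4.04, 2.36 and -1.0, and both calls (differences 2.34 and 2.03, adjusted p = 0.0058 and 0.0041 in limma) were lost without QX1792 (1.0 and 0.96), and that of ZK218.7 also without QX1793 (0.14). abu-4 and F10C1.8 (4.77, up to 3.78) followed. Below the range were zak-1 (-0.75, other strains from 0.41), R13A5.7 (1.58, from 2.45) and D1086.3 (-0.30, from 0.26).

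In QX1793, his-14, which encodes a histone H4, was at 4.69 against at most 3.83, with 3 annotated copies of equal value that cannot be told apart. peli-1 was at 1.44 (other strains from 2.45), K02F6.7 at 1.2 (from 2.16) and the lectin-like gene clec-4 at -0.81 (from -0.07). K02F6.7 overlaps K02F6.8 by 1683 bases on the same strand. In QX1794, F54F7.6 was at 5.35 (other strains up to 4.25), the transthyretin-related ttr-17 at 8.40 (up to 7.79) and fbxa-27 at 1.17 (up to 0.56). The neighbouring pseudogenes F39E9.7 and F39E9.28 on chromosome II were at 0.81 and 0.84 (from 1.54 and 1.55), and F21D5.3 was at 2.85 (from 3.35).

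**Figure D4:**
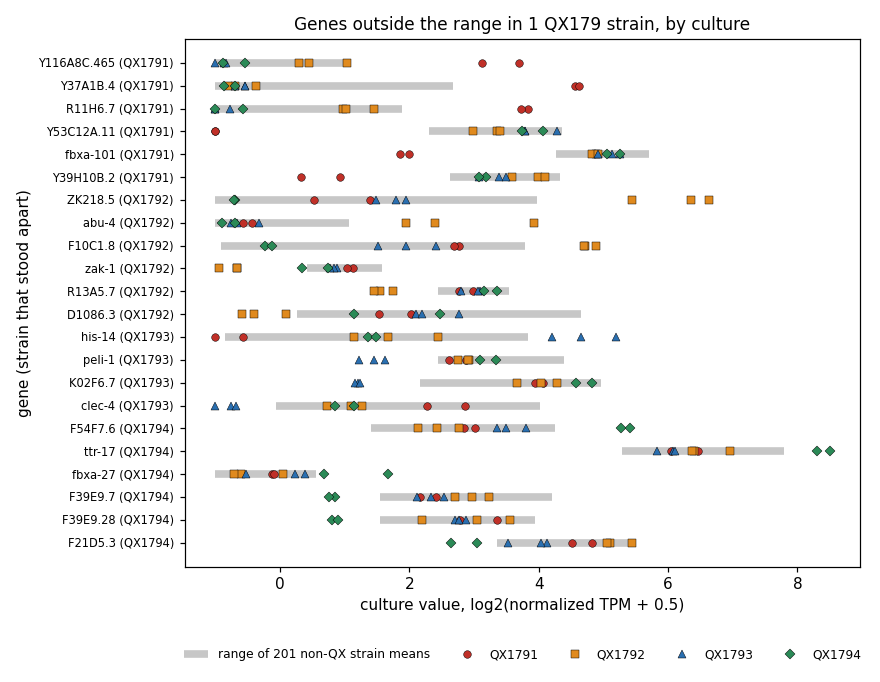
Culture values (log2 of normalized TPM + 0.5, x axis) of the genes farthest outside the range of the other strains in 1 QX179 strain (y axis, with that strain in brackets), with 1 symbol per QX179 culture and a bar from the lowest to the highest mean of the other strains. Both cultures of QX1791 lie at -1.0 for Y53C12A.11, where the other 3 strains had means of 3.25 to 3.95.

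Among genes known for natural alleles, the toxin and antidote pair peel-1 and zeel-1 divided the strains as the transcriptome did. peel-1 encodes a toxin carried by sperm and zeel-1 the antidote that the embryo makes. peel-1 read 2.82 and 2.56 in QX1791 and 1.98, 2.84 and 1.73 in QX1792, and had 0 counts in all 5 cultures of QX1793 and QX1794 (edgeR F-test among the 4, adjusted p = 3.5e-05). zeel-1 had 2 to 15 counts in 4 of the 5 cultures of QX1791 and QX1792 and 0 in the 5 cultures of QX1793 and QX1794.

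Of the other strains, 72 had peel-1 at 0 in every culture and 72 had zeel-1 at 0, and 70 had both at 0. The strains without peel-1 reads were also those with fewer sperm transcripts, and the part of sperm in this was not tested. The second pair, sup-35 and pha-1, was present in all 4 strains, at 2.74 to 3.62 and 1.16 to 2.02. plg-1, a mucin of the copulatory plug, was at 4.93, 4.19, 5.52 and 5.94, where the other strains ranged from -1.0 to 6.72 (median 5.72).

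None of the 21 tested genes on the list of known natural alleles was called. tra-3, a calpain protease of sex determination, was at 3.58, 3.77, 3.81 and 3.81, below the 10th percentile (3.83) in all 4, with a difference of -0.46 (SE 0.145, adjusted p = 0.25 in limma). ben-1, a beta-tubulin that benzimidazole drugs target, was at 4.6, 4.54, 3.81 and 4.34, and its difference was 0.12. The neuropeptide receptor gene npr-1 was at -0.74 to -0.42 with few reads, and the channel gene glc-1 at 1.67 to 2.46.

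sqst-5 was at 1.63, 2.09 and 1.99 in QX1791 to QX1793 and at 0.10 in QX1794, where the cultures had 6 and 8 counts (edgeR F-test among the 4, adjusted p = 0.0016). rol-1 was highest in QX1792 (5.72, 7.75 and 5.13) with a group difference of 1.42 (adjusted p = 1.0 in limma). Differences of the remaining genes of this list (top-2, ppw-1, glb-5, nath-10, nurf-1, dbt-1, set-24, scb-1, tyra-3, exp-1, trpa-1, drh-1, cyn-7 and bath-15) lay between -0.26 and 0.12.

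Features below the limit on low counts added no feature that set the 4 strains apart. When the limit required 4 strains in place of 10, 17209 features were tested and 17 of those added were called (2.88%), all higher, of which 5 had all 4 strains above the median and none was separate from the other strains. With no limit, 2.24% of the 5530 added features were called, 18 of these had all 4 strains above the median, and none was separate.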

How the data were processed

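Poly(A) libraries were made from RNA of whole animals. The authors trimmed reads with fastp 0.20.0, quantified transcripts with kallisto 0.44.0 against strain-specific transcriptomes, and deposited estimated counts and raw TPM for 65173 transcripts and 157 transposable element consensus sequences in 609 samples of 208 strains, of which 11 samples were of the 4 QX179 strains and 593 of 202 strains with a prefix other than QX. A strain with 1 sample was left out. The study's filter (at least 5 normalized counts in all cultures of at least 10 strains) and its selection of well-clustered cultures were repeated, which kept 559 of 608 cultures, 10 of them of QX179 strains and 544 of 201 other strains. Transcripts were summed per gene, and log2(TPM divided by a median-ratio factor, plus 0.5) was averaged per strain.

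QX179 and other strain means were compared with limma 3.58.1 (trend, two-sided, Benjamini-Hochberg). Differences among the 4 strains were tested with edgeR 4.0.16 on rounded estimated counts over 10 cultures, and distances and marker scores with 100000 permutations of strain labels (smallest possible p 2e-05). DESeq2 1.42.0 and edgeR on summed counts were alternatives, as were other pseudocounts, limits, pools, covariates and left-out strains. The fits were tested on simulated data. Names and coordinates came from an Ensembl annotation of WBcel235. 15 transcripts could not be matched to it, and eak-3, srx-43 and srx-44 were below the limit. Floors of 3 counts cover counting error only. No column of another series was used.

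The members and the gene lists were chosen with earlier results of these data known. Named genes were the 12 largest higher and 12 largest lower calls with all 4 strain means on one side, elements past both rules, the 3 features farthest above and below the range in each strain, list members past both rules, and the toxin and natural allele lists. pyk-2, unc-77, rrf-2, W08F4.7, srv-32 where it stands for its list, sams-5, gsp-3, unc-54, the pals and heat shock genes, nhr-98, irld-27, fbxa-28, Y82E9BR.2, ZK218.7, C26H9A.3 and the LTR elements were chosen after their values were seen.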

Additional observations from a re-analysis of the deposited data

Results flagged for a closer look

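In 19 of the results examined (18.8%), the mean of 1 QX179 strain lay far from the means of the other 3, with a gap to the nearest of them, as a share of the whole range over the 4, past Dixon's limit for 4 values. With 4 values, chance alone gives about 1 such result in 20, and features called because of 1 strain are bound to be among them. The choice of these results by their gap gives no test of its own. In edgeR's test of QX1791 against the other 3 strains, with Benjamini-Hochberg adjustment over all features, CER16_I_CE_LTR_Pao had an adjusted p of 2.8e-06 and CER6_I_CE_LTR_Gypsy of 4e-05.

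QX1791 stood apart in 12 of the 19. The gap, as a share of the range, was 0.971 for W08F4.7, 0.965 for Y37A1B.4, 0.946 for CER16_I_CE_LTR_Pao, 0.939 for R03D7.3, 0.932 for Y82E9BR.2, 0.916 for CER6_I_CE_LTR_Gypsy and for fbxa-101, 0.913 for R09H3.3, 0.911 for T01G5.7, 0.902 for ugt-67, 0.865 for F43D2.2 and 0.857 for Y53C12A.11. QX1791 was high at Y37A1B.4 (4.59), R03D7.3 (0.48), Y82E9BR.2 (4.52), R09H3.3 (2.33), T01G5.7 (3.56), F43D2.2 (3.89), ugt-67 (3.25) and both elements, and low at W08F4.7 (0.40), fbxa-101 (1.93) and Y53C12A.11 (-1.0). For W08F4.7 the range over the 4 strains was small, 0.40 to 0.55.

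QX1792 stood apart in 4, at 2.54 for ZC239.6 (0.933), 2.76 for abu-4 (0.919), 1.78 for F36G9.4 (0.879) and 1.59 for the pseudogene B0250.3 (0.846), where it was the 1 low strain. QX1794 stood apart at F39E9.28 (0.872, level 0.84) and, with few reads, at srv-32 (0.833, level -0.87). QX1793 stood apart at bath-15 (0.918, level 4.54 against 3.98 to 4.03).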

How the results depend on the processing

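The shares of features higher in QX179 (0.205%), lower in QX179 (0.108%) and called with a difference of at least 1 (0.187%) and the count of elements called (3) stayed within 1.5 times under both other pseudocounts, raw TPM, all cultures, subtracted pools, QX1212 and QX1233 among the other strains and without N2. Features higher in QX179 came to 0.308% with the limit at 4 strains and 0.759% with no limit (7 elements called), 0.524% with marker scores as covariates (0.445% lower, 0.337% with a difference of at least 1, 6 elements called) and 0.128% in DESeq2 (0.408% lower, 0.487%, 5 elements called). edgeR gave 0.0542% lower, 0.289% with a difference of at least 1 and 6 elements called, and with DESeq2 factors 0.0542%, 0.295% and 6. The cause was not tested. Leaving out each strain gave 0.114% to 0.271% higher, 0.0542% to 0.12% lower, 0.108% to 0.253% with a difference of at least 1 and 2 to 5 elements called. The lowest shares (0.114%, 0.0542% and 0.108%) came without QX1791. Leaving out single cultures gave 7390 to 10199 features that differ among the 4 QX179 strains (9456). The distance within minus to others ranged from 10.86 to 22.19 and the mean distance to others from 109.6 to 115.4, and the latter passed its threshold under Spearman's correlation (0.06155), with pools subtracted (115.9) and without QX1793 (115.4). No marker score passed under any setting, and the sperm score ranged from -1.0 to 0.44 with 1 strain left out.

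Of the 52 calls, 49 remained with pools subtracted, 48 with all cultures, 50 with QX1212 and QX1233, 41 with a pseudocount of 0.1, 49 with a pseudocount of 1 and 44 with raw TPM. Without QX1791 the direction turned for CER16_I_CE_LTR_Pao (-0.00, and up to 0.52 without another strain), CER6_I_CE_LTR_Gypsy (-0.02, up to 0.40), R03D7.3 (-0.02, up to 0.43) and Y53C12A.11 (0.03, down to -1.63), since these calls rest on that strain. No setting moved the median of all features by over 0.1. No paired analysis was possible because the labels give no replicate numbers that strains share. With 4 strains, and at most 3 cultures of each, a difference of 1 strain from the others and a difference of the group are not well separated.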
